A study of Mus musculus with 12 samples.

Results

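The RNA of 9 genes that mark B cells and plasma cells was followed in mouse spleen cultures kept with interleukin-2. The genes were Cd79a, Cd79b, Ms4a1, Cd22, Cr2, Blk, Blnk, Pax5 and Sdc1. They were chosen by gene symbol, and all 15 probe sets that the platform annotation gives to these 9 genes were taken, out of 45037 probe sets and 18193 named genes on the array. The signals were low in all 4 groups. Of the 15 probe sets, 6 passed the filter on dim signals, which asked for a signal above the median of its own array on at least 3 of 12 arrays. They belonged to Cd79b, Cd22, Blk and Sdc1, and the other 5 genes had no probe set past it.

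The cells were splenocytes of DBA/2 mice aged 10 weeks, grown for 9 days in CM-10 medium beside KLN-205 cells, which derive from a squamous cell carcinoma of mouse lung. In all groups these tumour cells had SEMA3A, a secreted semaphorin, knocked down, and interleukin-2 was given at 100 units/mL. The control group had these KLN-205KD cells and nothing more. In the SEMA6A group the KLN-205KD cells overexpressed SEMA6A, a membrane-bound semaphorin. The SEMA3A group had KLN-205KD cells and 10 µg/mL of purified SEMA3A protein, and the remaining group had SEMA6A-overexpressing cells and SEMA3A protein together. Each group had 3 arrays. Nothing in the labels tells if a group's arrays stem from separate cultures or mice, and p-values therefore measure only the spread between these samples, which may be technical. No spleen sample from before the culture was among the arrays used here, so the signals have no starting level to be set against.

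B cells recognise antigen through a membrane immunoglobulin that signals through its partner chains CD79A and CD79B. The kinase BLK and the adaptor BLNK pass this signal on, while CD22 dampens it and CR2, a complement receptor, strengthens it. PAX5 keeps B cells in their identity and is lost when they become plasma cells, which secrete antibody and carry syndecan-1, the product of Sdc1. Interleukin-2 is a growth factor of T cells and natural killer (NK) cells. Sdc1 is also made by epithelium, and Cr2 by follicular dendritic cells.

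Array medians lay between 42.5 and 53.5, with the highest on replicate 2 of the group with both factors, and the highest signal on an array lay between 44046 and 53212. The 3'/5' ratio of Gapdh, a measure of RNA quality, was 0.767 to 0.818 on 11 arrays and 1.22 on SEMA6A replicate 2, which stood apart. That array was also highest for the ratio of Actb (1.23) and of the transferrin receptor (35.7), and it had the lowest summed signal of T cell markers (50699, against 59363 to 68734 elsewhere). The transferrin receptor ratio spanned 5.93 to 35.7 over all arrays and differed between groups, with 6.82 to 9.34 in the control group, 8.39 to 35.7 with SEMA6A, 17.2 to 18.1 with SEMA3A and 5.93 to 12.2 with both factors. Its part in the results was not tested. Genes of T cells and NK cells were bright on all arrays: Cd3d, a chain of the T cell receptor complex, had a mean signal of 20018 ± 2260 (SD, n = 12), and Nkg7, a granule gene of cytotoxic cells, 19546 ± 934. Of 11 T cell markers with a probe set, 10 passed the filter, with Cd4 as the exception at 8.59 ± 2.50. Of 9 NK cell markers 8 passed it, and of 12 macrophage markers 4. Probe sets differ in affinity, so the signal of one cannot be read as more or less RNA than that of another. A low signal in a mixed culture can come from fewer cells of a type or from less RNA per cell, and these cannot be told apart here.

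The signalling chains of the B cell receptor gave unlike signals. Cd79b (probe set 1417640_at) was above the array median on all 12 arrays. It had signals of 74.9, 56.9 and 65.9 in the control group, 90.6, 73.9 and 102 with SEMA6A, 69.0, 106 and 80.0 with SEMA3A, and 60.4, 103 and 84.0 with both factors. The control group was lowest by its mean, at 65.9 ± 9.00 (SD, n = 3), against 88.8 ± 14.0 with SEMA6A, but the highest control array lay above the lowest array of each other group. Cd79a (1418830_at) was above the array median on no array. It had signals of 22.5, 19.8 and 4.65 in the control group, 9.59, 43.0 and 25.2 with SEMA6A, 2.12, 13.9 and 6.14 with SEMA3A, and 14.4, 19.7 and 7.47 with both factors. The replicates of a group varied widely, and all groups overlapped.

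The surface proteins of mature B cells were dim as well. Ms4a1, which encodes CD20, had a probe set (1423226_at) at 25.9, 43.9 and 37.1 in the control group, 26.5, 30.6 and 35.6 with SEMA6A, 31.2, 40.1 and 40.9 with SEMA3A, and 38.5, 43.5 and 31.7 with both factors. The 4 groups overlapped, with means from 30.9 ± 4.56 to 37.9 ± 5.92 (SD, n = 3), and this probe set had the highest mean of the 9 below the filter, 35.5. The other Ms4a1 probe set (1450912_at) ranged from 4.06 to 27.1 over the 12 arrays.

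Cd22, the inhibitory lectin of B cells, was past the filter with 1 of its 2 probe sets. Probe set 1419768_at had signals of 71.6, 62.3 and 49.6 in the control group, 32.7, 66.5 and 54.6 with SEMA6A, 49.0, 63.2 and 56.9 with SEMA3A, and 74.1, 134 and 52.4 with both factors. The value of 134, on replicate 2 of the group with both factors, was the highest signal of any member probe set on any array, and all groups overlapped. The second probe set (1419769_at) was near the bottom of the scale, at 1.03, 0.487 and 1.05 in the control group, 9.65, 2.70 and 1.53 with SEMA6A, 10.8, 15.0 and 7.06 with SEMA3A, and 0.604, 1.35 and 18.0 with both factors. Here the 3 control arrays were below all arrays with SEMA6A alone and all with SEMA3A alone. The 2 probe sets of Cd22 thus differed in which groups were lowest.

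Cr2 (1425289_a_at), the complement receptor, was below the filter. Its signals were 26.0, 5.99 and 36.1 in the control group, 37.0, 24.5 and 15.0 with SEMA6A, 41.8, 34.8 and 18.0 with SEMA3A, and 34.7, 3.62 and 32.5 with both factors. Single arrays fell far below their group in the control group and in the group with both factors, and all groups overlapped. Of 8 follicular dendritic cell markers, a list that includes Cr2, 3 passed the filter: Mfge8 at 455 ± 62.9 (SD, n = 12), Fcgr2b at 198 ± 67.9 and Clu at 130.0 ± 69.9. Cxcl13, Madcam1, Vcam1, Ltbr and Cr2 itself did not pass. Fcgr2b is also counted among the other B cell surface genes below. The summed signal of the list's 7 genes other than Cr2 was 836 to 888 in the control group, 844 to 1784 with SEMA6A, 852 to 1451 with SEMA3A and 950.0 to 1096 with both factors, with no marker at 0. The 1784 was on SEMA6A replicate 2, whose 3'/5' ratios stood apart, and the other SEMA6A arrays were at 844 and 1378. The part of these markers in the Cr2 signals was not tested.

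The intracellular members of the receptor pathway varied widely among the arrays of a group. Blk (1422775_at), a Src family kinase, was above the array median on 6 of 12 arrays. It had signals of 50.0, 55.8 and 37.1 in the control group, 58.4, 35.2 and 55.3 with SEMA6A, 32.2, 69.0 and 13.9 with SEMA3A, and 31.1, 75.4 and 25.7 with both factors. In the SEMA3A group and the group with both factors, replicate 2 was the highest array by far, and all groups overlapped. Blnk (1451780_at), the adaptor, stayed below the filter, with signals of 24.8, 7.29 and 19.0 in the control group, 24.6, 15.8 and 39.0 with SEMA6A, 24.0, 21.3 and 14.9 with SEMA3A, and 37.9, 25.6 and 8.37 with both factors. All groups overlapped here too.

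Pax5, the transcription factor of B cell identity, had both its probe sets below the filter. Probe set 1454401_at had signals of 40.1, 30.1 and 19.1 in the control group, 9.88, 32.1 and 39.3 with SEMA6A, 18.5, 30.2 and 9.04 with SEMA3A, and 17.0, 8.45 and 7.72 with both factors. The group with both factors lay below all control arrays, at 11.1 ± 5.18 against 29.8 ± 10.5 (SD, n = 3 each), and overlapped the other groups. The second probe set (1421765_at) ranged from 3.40 to 39.7, and its groups overlapped.

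Sdc1, the plasma cell marker, was the member with most probe sets, 4, of which 3 passed the filter. Probe set 1415943_at was above the array median on all 12 arrays, with signals of 62.4, 71.1 and 97.0 in the control group, 79.5, 91.1 and 108 with SEMA6A, 79.3, 130.1 and 58.6 with SEMA3A, and 95.3, 95.4 and 112 with both factors. All groups overlapped. Probe set 1437279_x_at had signals of 43.5, 73.4 and 42.3 in the control group, 51.6, 49.2 and 51.8 with SEMA6A, 33.2, 37.0 and 29.9 with SEMA3A, and 65.2, 40.3 and 49.5 with both factors. Here the 3 arrays with SEMA3A alone were below the other 9 arrays. Probe set 1415944_at had signals of 26.0, 48.1 and 73.2 in the control group, 12.5, 40.0 and 13.9 with SEMA6A, 8.98, 60.7 and 16.4 with SEMA3A, and 31.9, 119.7 and 11.5 with both factors. Replicate 2 was high in each of the 3 treated groups, and the groups overlapped. The fourth, 1448158_at, was below the filter and ranged from 6.26 to 42.4.

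The 4 Sdc1 probe sets did not move together over the arrays. SEMA3A arrays were low by 1437279_x_at, while 1 of them had the highest signal of all arrays by 1415943_at. Squamous epithelium, the kind of cell KLN-205 derives from, also makes Sdc1. Of 18 squamous markers 13 passed the filter, among them Pkp3, Cdh1 and Epcam, while Krt14, a basal keratin, was at 16.8 ± 12.5 (SD, n = 12) and did not. The summed signal of all 18 was 5033 to 5402 in the control group, 4828 to 7293 with SEMA6A, 4965 to 5782 with SEMA3A and 5132 to 5597 with both factors, with no marker at 0. The 7293 was on SEMA6A replicate 2, whose 3'/5' ratios stood apart, and the other SEMA6A arrays were at 4828 and 5682. The part of these markers in the Sdc1 signals was not tested.

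**Figure D1:**
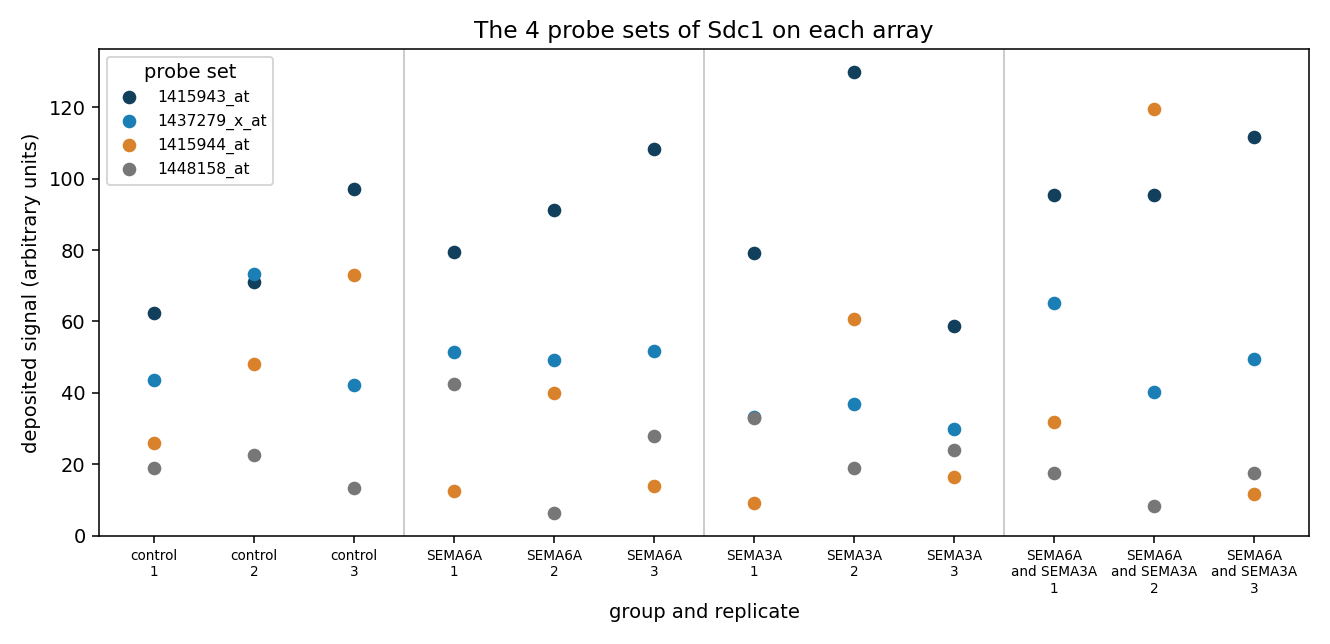
Deposited signal (arbitrary units) of the 4 Sdc1 probe sets on each of the 12 arrays, by group and replicate. The 3 SEMA3A arrays are lowest by 1437279_x_at (29.9 to 37.0), while 1415943_at reaches 130.1 on a SEMA3A array and 1415944_at reaches 119.7 on replicate 2 of the group with both factors.

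Set beside the rest of the array, most member probe sets were in its dimmer part. Cd79b 1417640_at and Sdc1 1415943_at were above the array median on all 12 arrays and Cd22 1419768_at on 11, while 9 of the 15 probe sets were above it on none. The 15 probe sets gave 180 measurements, of which 51 (28.3%) were above the median of their array, and the highest position any of them reached was the 63.7th percentile of an array. Of the member probe sets 40% passed the filter, against 54.1% of all probe sets. As a gauge of dim signals, 26 genes specific to other organs (liver, heart, kidney, lung, testis and others) had 41 probe sets, of which 4 (9.76%) passed it. Their mean signals ran from 1.71 to 113, with a median of 9.53, and the member means from 5.77 to 90.0, with a median of 25.8. No member probe set had a mean above the highest of the other organs, that of Sftpb, a surfactant gene of the lung, at 113 ± 28.5 (SD, n = 12), and 7 of the 15 were above 90% of the other-organ means. Probe set affinity enters this gauge, so it does not show which member signals came from B cell RNA. KLN-205 cells, present in all cultures, derive from lung, and their part in the Sftpb signal was not tested.

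**Figure D2:**
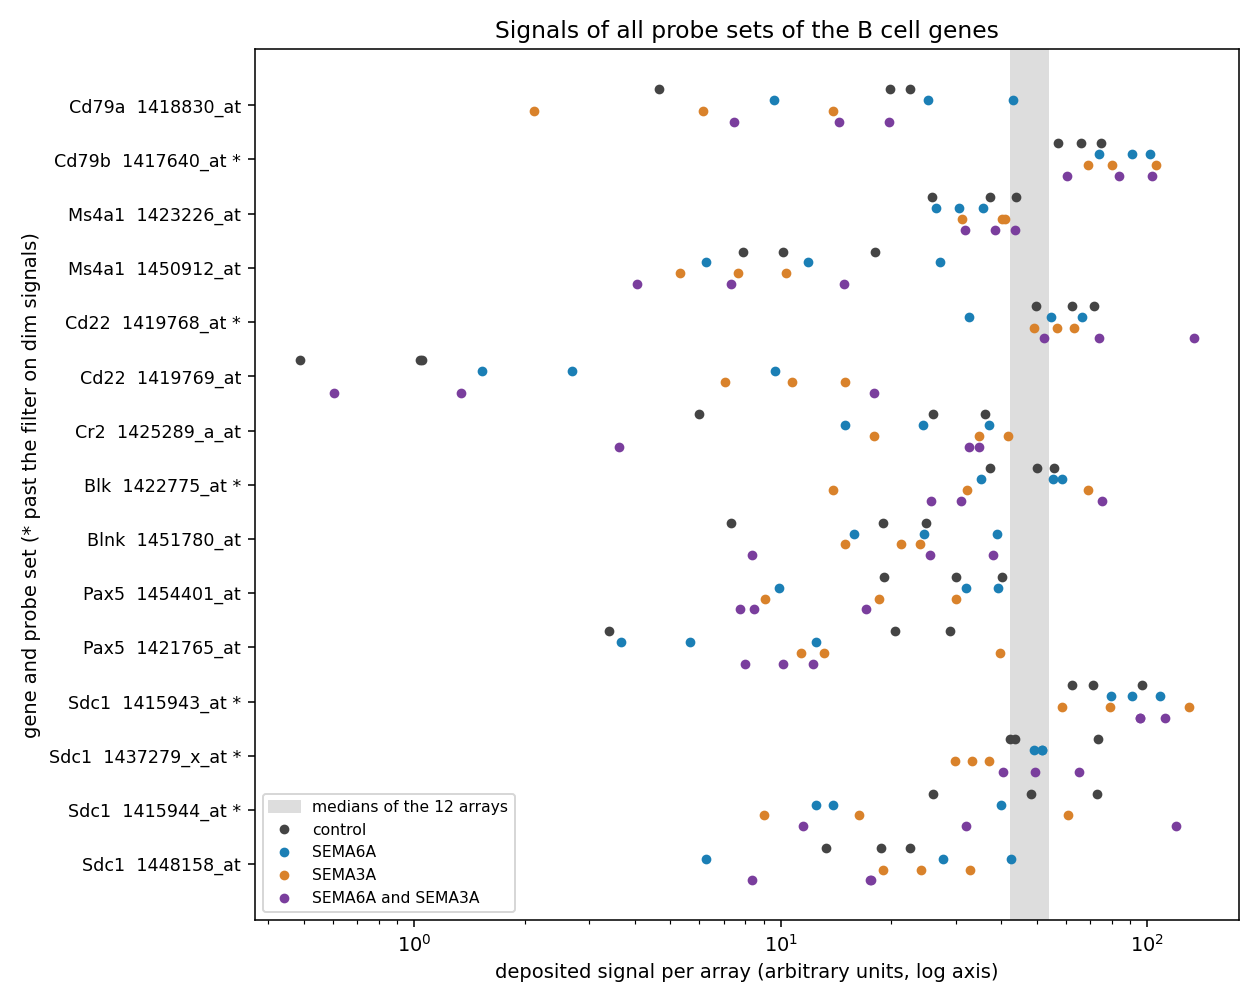
Deposited signal per array (arbitrary units, log axis) of the 15 probe sets of the 9 genes, coloured by group, with an asterisk at those past the filter and a grey band over the array medians (42.5 to 53.5). The signals span 0.487 to 134, and the points of the 4 groups are mixed for most probe sets.

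Groups did not overlap in 7 of 90 pairs of groups over the 15 probe sets (7.78%), against 12.9% over all probe sets. Over all probe sets the share was 11.4% for control against SEMA6A, 14.1% for control against SEMA3A, 15% for control against both factors, 8.87% for SEMA6A against SEMA3A, 12.1% for SEMA6A against both and 15.7% for SEMA3A against both. The member pairs were the 2 pairs of Cd22 1419769_at, the pair of Pax5 1454401_at, the 3 pairs of Sdc1 1437279_x_at and, for Sdc1 1448158_at, SEMA3A alone against both factors. Ordered by their means, 43 of 45 neighbouring groups overlapped. Probe sets of the same gene did not follow each other: over the 12 arrays, the 9 pairs of probe sets of 1 gene had correlations from -0.69 to 0.20 with a median of 0.00, and the 96 pairs of different genes had a median of -0.01. These values are descriptions over arrays that share the same processing.

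The design asks what SEMA6A, SEMA3A and both together change, and whether the effect of one depends on the other. On the log2 scale none of the 36 differences of the 6 member probe sets past the filter passed the test in 6 comparisons (limma with Benjamini-Hochberg adjustment at 0.05 over 24366 probe sets). Neither did any other probe set: the share called was 0% in each comparison. The 6 comparisons share arrays, the control group among them, and are not independent. At an unadjusted p under 0.05, 1 of the 36 member differences was called. Without SEMA6A replicate 2, that of Cd22 1419768_at for both factors against SEMA6A alone and its interaction were called as well. Each was 1 of 6 member probe sets (16.7%), against 7.49% and 14% of all probe sets in that fit. With all arrays, the share of all probe sets called so was 9.39% for SEMA6A and 8.13% for SEMA3A against control. It was 5.98% for both factors against control, 11.2% for both against SEMA3A alone, 10.7% for both against SEMA6A alone and 15.4% for the interaction.

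The called difference was that of Sdc1 1437279_x_at with SEMA3A, whose log2 difference from control was -0.54 ± 0.24 (SE; unadjusted p = 0.0406, limma adjusted p = 0.60). Its 95% interval ran from -1.05 to -0.03, and the difference was -0.35 without control replicate 2. Sdc1 probe set 1415943_at had 0.09 ± 0.23 in the same comparison (adjusted p = 0.94), and 1415944_at had -0.74 ± 0.55 (adjusted p = 0.72), which ran from -1.19 without SEMA3A replicate 2 to -0.40 without SEMA3A replicate 1. The 3 probe sets thus gave both signs.

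Cd79b had positive log2 differences from control in the 3 treated groups, of 0.29 ± 0.21 with SEMA6A (SE; limma adjusted p = 0.62), 0.23 ± 0.21 with SEMA3A and 0.18 ± 0.21 with both factors. They share the control arrays, and each interval includes 0: with SEMA6A it ran from -0.17 to 0.75. With 1 array left out, the Cd79b difference ran from 0.20 to 0.41 with SEMA6A (0.41 without SEMA6A replicate 2), from 0.11 to 0.36 with SEMA3A and from 0.048 to 0.36 with both factors. Among differences between groups, Cd22 1419768_at had its greatest value for both factors against SEMA6A alone, 0.57 ± 0.27 (adjusted p = 0.47), which was 0.27 once replicate 2 with both factors was left out. Its interaction was 0.71 ± 0.39 (adjusted p = 0.38), and 0.41 without that array.

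Blk had a log2 difference of -0.43 ± 0.36 with SEMA3A (SE; limma adjusted p = 0.76), which ran from -0.79 (SEMA3A replicate 2 left out) to -0.096 (SEMA3A replicate 3 left out). With SEMA6A it was -0.04 ± 0.36, and 0.14 without SEMA6A replicate 2. Leaving out 1 array changed the sign or moved the size by over 1.5 times for 34 of the 36 member differences. The member interaction of the greatest size was that of Sdc1 1415944_at, 1.33 ± 0.78 (adjusted p = 0.42), which was 0.70 once replicate 2 with both factors was left out. That array held the highest signal of Cd22 1419768_at, Blk and Sdc1 1415944_at, and it had the highest array median. Of the 36 intervals 35 included 0, and 21 lay within 1 log2 unit on either side, so for the other 15 a doubling or halving lay inside the interval. The median of the 6 differences was -0.06 with SEMA6A, -0.29 with SEMA3A and 0.02 with both factors against control, against -0.00, -0.01 and -0.00 over all probe sets.

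**Figure D3:**
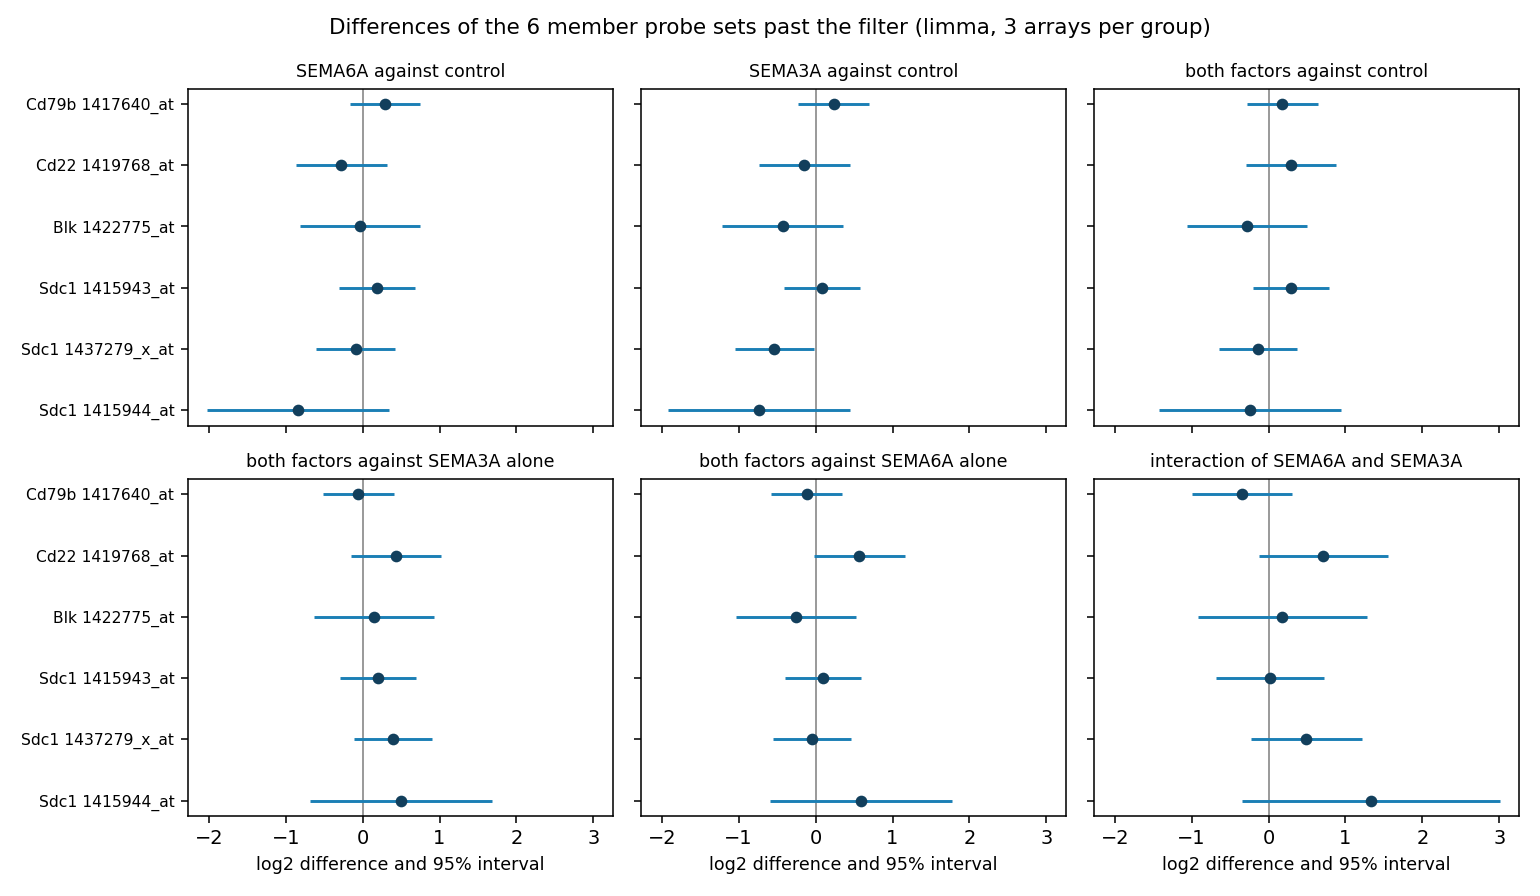
Log2 differences with 95% intervals of the 6 member probe sets past the filter, 1 panel per comparison (limma, 3 arrays per group). All intervals but that of Sdc1 1437279_x_at with SEMA3A, at -0.54, include 0.

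The 9 probe sets below the filter were fitted with all 45037 probe sets. Their 54 log2 differences ran from -0.86 to 0.63, and 0 passed the adjusted test, as for all probe sets. At an unadjusted p under 0.05, 2 were called: Cd22 1419769_at with SEMA3A (limma adjusted p = 0.69) and Pax5 1454401_at with both factors against control (limma adjusted p = 0.77). Without a filter the share of all probe sets called so was 7.65% for SEMA6A, 6.97% for SEMA3A and 5.69% for both factors against control, 8.81% for both against SEMA3A alone, 8.28% for both against SEMA6A alone and 10.8% for the interaction.

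Other genes of the B cell lineage passed the filter in part. Of 15 other B cell surface genes 10 passed the filter, led by Cd37, a tetraspanin, at 2924 ± 304 (SD, n = 12), Cd72, an inhibitory lectin, at 719 ± 94.0, and Tnfrsf13b, the TACI receptor, at 387 ± 132. Cd37 is made by T cells too. Of 14 B cell transcription factors 9 passed, led by Irf8 at 8112 ± 663, Ikzf3 at 2358 ± 268 and Tcf3 at 1270 ± 163, all of which other lymphocytes use as well. Ebf1, which works with PAX5 in the B lineage, was at 14.5 ± 8.59 and Pou2af1, a B cell coactivator, at 23.4 ± 7.80, and neither passed.

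Most genes of the plasma cell list passed the filter, but not all, and passing it does not show which cells made the RNA. Of 14 plasma cell genes 12 passed, led by Xbp1, a factor of the secretory stress response, at 11941 ± 1516 (SD, n = 12), Sec11c at 7822 ± 1500 and Edem1 at 5898 ± 287. Prdm1 and Irf4, the factors that drive plasma cells and also act in activated T cells, were at 948 ± 450 and 988 ± 127. Jchain, the joining chain of secreted antibody, was at 19.4 ± 9.59 and Tnfrsf17, the BCMA receptor, at 14.9 ± 9.17, and neither passed. Ighm, the constant region of IgM, had 3 of 11 probe sets past the filter, with means of 343 ± 182, 247 ± 113 and 168 ± 25.1.

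Most genes of the signalling pathway that the members serve passed the filter. Of 19 genes of B cell receptor signalling 16 passed the filter, led by Pik3cd, a lipid kinase subunit, at 6526 ± 1992 (SD, n = 12), Inpp5d at 2495 ± 173 and Grb2 at 2413 ± 124. Those that did not pass were Btk at 11.4 ± 7.16, Rasgrp3 at 12.1 ± 7.18 and Fcrla at 13.5 ± 11.2. Passing the filter does not show which cells of the culture made the RNA. Syk, the kinase recruited by CD79A and CD79B, was at 68.0 ± 17.7. Its T cell relative Zap70 was at 2874 ± 290. Of 8 T cell counterparts of the members all passed, among them Cd3g, Cd3e and the adaptor Lcp2, at 5253 ± 534. Some relatives of the members by gene family passed it too: Ms4a4b, a T cell gene of the MS4A family, was at 14430 ± 2167 and the Src family kinase Fyn at 2087 ± 276.

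**Figure D4:**
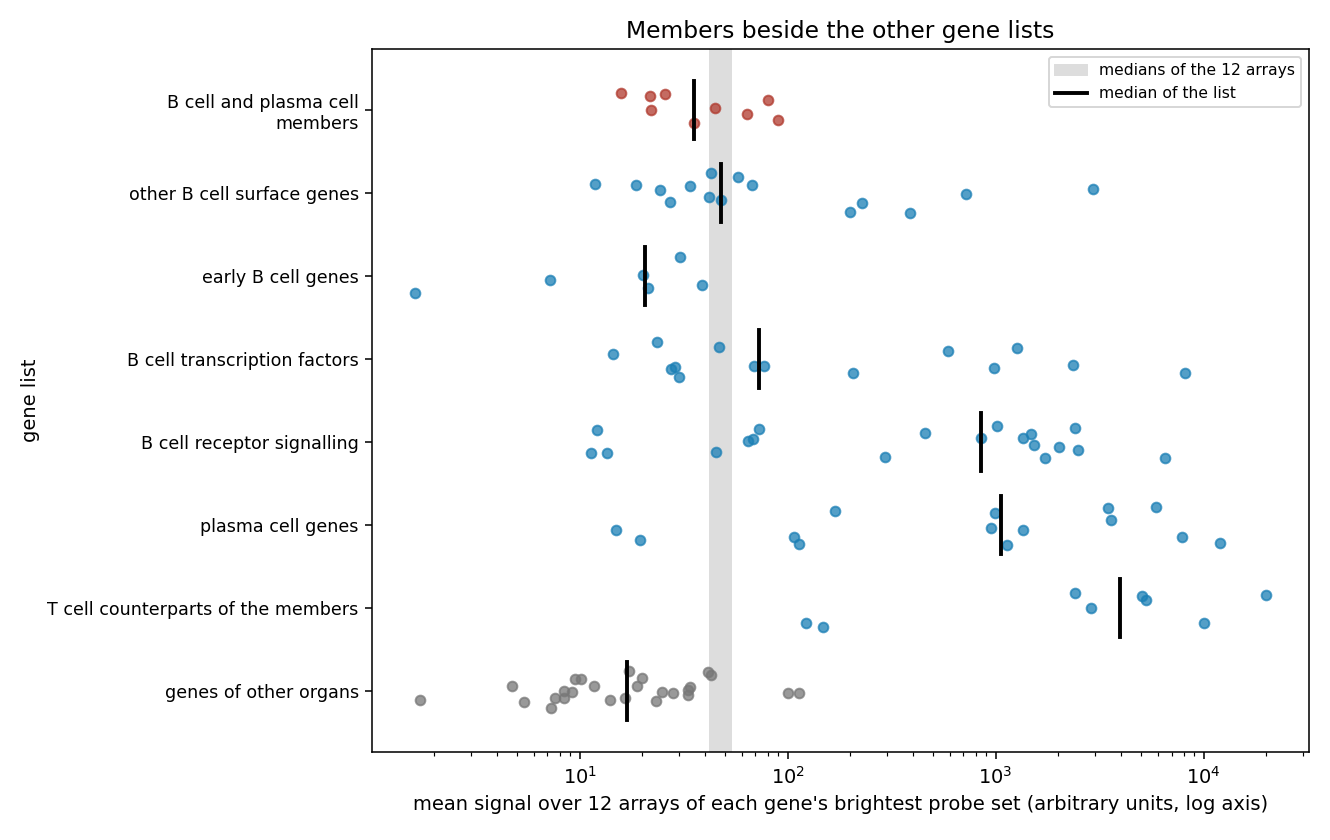
Mean signal over 12 arrays (arbitrary units, log axis) of the brightest probe set of each gene, by gene list. The members lie between 15.7 and 90.0, the T cell counterparts between 122 and 20018 and the genes of other organs between 1.71 and 113.

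No probe set of these lists passed the adjusted test in any comparison over all arrays (limma). Without SEMA6A replicate 2, 1 of 36 of B cell receptor signalling did, for both factors against control. Over all probe sets, leaving out 1 array gave 0 to 7 called in that comparison. At an unadjusted p under 0.05 in SEMA6A against control (9.39% of all probe sets), 0 of 11 tested probe sets of the other B cell surface genes were called, 1 of 5 of immunoglobulin constant genes, 3 of 19 of B cell transcription factors (15.8%) and 5 of 36 of B cell receptor signalling (13.9%). With SEMA3A (8.13% of all) the same lists had 0, 0, 0 and 3 called, and with both factors against control (5.98% of all) 0, 0, 0 and 3. Without SEMA6A replicate 2 they had 1, 2, 2 and 1 called with SEMA6A (5.08% of all) and 1, 0, 0 and 5 with SEMA3A (12.8% of all). With both factors against control (9.12% of all) the counts were then 0, 0, 2 and 8, the last being 22.2% of its list. The immunoglobulin probe set called with all arrays was 1 of Ighm, at 217 ± 70.8 in the control group and 472 ± 227 with SEMA6A (SD, n = 3 each; limma adjusted p = 0.52). The 2 of 5 called with SEMA6A without SEMA6A replicate 2 (40%) were both of Ighm.

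Of 19 tested probe sets of plasma cell genes, 3 were called at an unadjusted p with SEMA6A (15.8%), 3 with SEMA3A (15.8%) and 1 with both factors against control (5.26%). The shares of all probe sets were 9.39%, 8.13% and 5.98%. With SEMA6A the called genes were of either sign: Pim2 had 0.68 ± 0.20 and Irf4 -0.33 ± 0.13 (SE; limma adjusted p = 0.52 each). Prdm1 was called with SEMA6A too. With SEMA3A the called genes were Pim2, Prdm1 and Slamf7, and with both factors against control Xbp1. Without SEMA6A replicate 2, 2 of 19 were called with SEMA6A (10.5%, against 5.08% of all), Pim2 and Prdm1. Prdm1 had group means of 592 ± 20.7 in the control group, 1204 ± 450 with SEMA6A, 1278 ± 597 with SEMA3A and 717 ± 147 with both factors (SD, n = 3 each). Its log2 difference from control was 0.94 ± 0.34 with SEMA6A (SE; limma adjusted p = 0.52) and its interaction -1.64 ± 0.49 (limma adjusted p = 0.24), and without SEMA6A replicate 2 they were 0.87 and -1.57. In the fit without that array, the Prdm1 difference from control with SEMA3A was 0.97 ± 0.34 (SE; limma adjusted p = 0.32). For the member Sdc1, the interaction was 0.01 by 1415943_at, 1.33 by 1415944_at and 0.49 by 1437279_x_at (limma adjusted p = 0.99, 0.42 and 0.49). The group means of 1415943_at were 76.8 ± 18.0, 93.0 ± 14.5, 89.3 ± 36.8 and 101 ± 9.44, in the order given for Prdm1.

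Genes whose values followed a member most closely were sought among the probe sets past the filter, by Pearson r of log2 values over the 12 arrays. For Cd79b they were Ubxn11 (r = 0.89) and Adam33 (r = 0.84), and for Blk Mapkap1 (r = 0.91) and Qpctl (r = 0.89). For Cd22 they were Rrm2b (r = 0.89) and Upk2 (r = 0.85), but the rank correlation of Upk2 was 0.35. For Sdc1 1415943_at they were Cfdp1 (r = 0.91) and H2-T3 (r = 0.87). No other member gene was among the 2 most alike of any member. The highest r among 24366 probe sets is high by selection, so these are given as a description.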

How the data were processed

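Per the labels' protocols, 6 µg of total RNA went into the biotin labelling, and 12 arrays of 1 colour were measured. The authors deposited a linear intensity (signal) for every probe set. Per the submitters' processing notes it was made with MAS5, in a version not given in the sources used. Trimmed of 2% at each end, the mean was 500.004 on every array, so arrays had been scaled alike.

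Probe sets were named by the platform annotation where it gave 1 gene (34945 of 45037; 932 named several and 9160 were not listed), with 64 controls left out. Log2(signal + 16) was quantile normalized, and the added 16 understates changes of dim genes. Differences were fitted with limma 3.58.1 in R 4.3.3 (1 mean per group, all 12 arrays, 8 residual and 5.28 prior degrees of freedom, trended prior), on probe sets above the array median on at least 3 arrays. The median standard error was 0.18, and precision is limited by having 3 arrays per group. The fit was tested on simulated data. Levels were summarised with Python 3.11.15.

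The members and gene lists were chosen with earlier results of these data known. All member probe sets are accounted for. From other lists, the 3 brightest genes and a panel of marker genes are named; others named were chosen after their values were seen. Alternatives covered normalization, pseudocount, filter, probe sets per gene, arrays fitted, a replicate block, the prior and leaving out each array; list counts without SEMA6A replicate 2 were added after seeing the data. No promoter, protein or genome sequence was used here.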

Additional observations from a re-analysis of the deposited data

How the results depend on the processing

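All 702 values of the 36 member differences under the alternatives stayed short of the limma threshold (lowest adjusted p 0.337), and 6 member probe sets passed the filter with each array left out and on quantile normalized signals. Above the 75th percentile, a filter applied to this count after seeing the data, 0 passed. Counts of called probe sets over the whole array, 0 in each comparison, moved more. Leaving out 1 array gave 0 to 199 for SEMA6A against control (199 without SEMA6A replicate 1), 0 to 1 for SEMA3A, 0 to 7 for both factors, 0 to 2 for both against SEMA3A alone, 0 to 1 for both against SEMA6A alone and 0 to 1377 for the interaction (1377 without SEMA6A replicate 1, 109 without SEMA3A replicate 3). Fitting only the arrays compared gave 52 for both factors against control and 40 for both against SEMA3A alone, and no further normalization gave 1 for both factors against control. The cause was not tested. With the replicate number as a block, 0 probe sets were called in each of the 6 comparisons (lowest limma adjusted p 0.0582). The 18 pairs of same-numbered arrays had correlations from -0.28 to 0.083, none over 0.1. Some differently numbered arrays were more alike, as SEMA6A replicate 1 and SEMA3A replicate 3 at 0.32. These correlations cannot show whether arrays shared a culture or mouse, so a pairing by number was neither found nor excluded.

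Of the 36 member differences 14 changed sign under at least 1 alternative, the largest being 0.59 in size. Without further normalization, Blk with SEMA6A was 0.036, Sdc1 1437279_x_at for both against SEMA6A alone 0.00076 and the interaction of Sdc1 1415943_at -0.037. Leaving out 1 array gave these log2 ranges. With SEMA6A against control, Blk ran from -0.16 to 0.14 and Sdc1 1437279_x_at from -0.19 to 0.092. With SEMA3A, Sdc1 1415943_at ran from -0.15 to 0.27. With both factors against control, Sdc1 1415944_at ran from -0.88 to 0.24, Cd22 1419768_at from -0.015 to 0.52 and Sdc1 1437279_x_at from -0.29 to 0.043. For both against SEMA3A alone, Sdc1 1415944_at ran from -0.14 to 0.98, Cd79b from -0.19 to 0.13 and Blk from -0.19 to 0.51. For both against SEMA6A alone, Sdc1 1415944_at ran from -0.041 to 1.08, Cd79b from -0.25 to 0.069 and Sdc1 1437279_x_at from -0.20 to 0.13. For the interaction, Sdc1 1415943_at ran from -0.17 to 0.25 and Blk from -0.15 to 0.54. Signals this near the dim end of an array limit what 3 arrays per group can show.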

Other observations

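In the MS4A family, to which Ms4a1 belongs, 7 of 10 tested probe sets had negative and 3 positive log2 differences with SEMA6A against control, with a median of -0.42 against -0.00 over all probe sets. None passed the adjusted test (limma), and 6 (60%, against 9.39% of all) were called at an unadjusted p under 0.05. These were Ms4a4b with -0.37 ± 0.13 (SE; limma adjusted p = 0.52), Ms4a6b with -0.47 ± 0.17, the 2 probe sets of Ms4a6d with -0.62 and -0.55, and the 2 of Ms4a4c with -1.04 and -1.19. The positive values were 0.07 for Ms4a3 and 0.02 and 0.13 for the 2 probe sets of Ms4a6c. With SEMA3A and with both factors against control, 0 of 10 were called at an unadjusted p, and for the interaction 6 of 10 (60%, against 15.4% of all). Neither probe set of Ms4a1 was tested, as both lay below the filter.

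Without SEMA6A replicate 2, whose 3'/5' ratios stood apart, 2 of the 10 were called with SEMA6A (20%, against 5.08% of all), both of Ms4a4c. For the interaction 5 of 10 were then called (50%, against 14% of all). In SEMA6A against control with all arrays (9.39% of all), 5 of 19 tested probe sets of squamous epithelium markers were called (26.3%, with a median of 0.49). Among them was Krt19 at 33.3 ± 17.1 in the control group and 157 ± 70.6 with SEMA6A (SD, n = 3 each). Of 6 tested probe sets of follicular dendritic cell markers 2 were called (33.3%), both of Clu. Without SEMA6A replicate 2, 3 of 19 squamous probe sets were called (15.8%, against 5.08% of all). Of the follicular dendritic cell markers only 3 probe sets were then tested, and 0 were called. Their part in the MS4A values was not tested.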
